A study of Mus musculus with 38 samples.

Results

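Nuclear genes for subunits of oxidative phosphorylation were followed in mouse intestinal epithelium before and during chemically induced colitis, with and without hexokinase 2. The members were the rows of the deposited count files whose gene names begin with Nduf (followed by a, b, c, s or v and a digit), Uqcr, Cox4 to Cox8 or Atp5, or are Sdha, Sdhb, Sdhc or Sdhd, leaving out names that mark pseudogenes. They numbered 85 of the 46078 rows in the files, with 37 in complex I, 4 in complex II, 9 in complex III, 18 in complex IV and 17 in complex V. Placement was by name, so Atp5s and Atp5sl, which are not structural subunits of the ATP synthase, counted with complex V, and Ndufa4, now regarded as a complex IV subunit, counted with complex I. RNA of isolated intestinal epithelial cells was sequenced from 38 mice of the C57BL/6 strain per the labels, while the series text speaks of colon tissue. All mice carried floxed Hk2 alleles (Hk2 flox/flox). In the mice labelled Hk2dIEC, called KO here, Cre recombinase under the Villin promoter, which is active in the intestinal epithelium, was to delete Hk2, and littermates without it, called WT, were the controls. On days 3 and 7 the mice had received 1.5% dextran sodium sulfate (DSS), a polymer that injures the colonic epithelium, in drinking water. These were males of 10 to 12 weeks, with both genotypes housed together. Mice for basal measurements were 9 to 11 or 86 to 92 weeks old, and the labels do not say which age the untreated day 0 mice had. There were 4 WT and 5 KO libraries of day 0, 7 and 8 of day 3, and 7 of each genotype on day 7, each from its own animal and named by day, genotype and animal number (d3_WT_381).

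Oxidative phosphorylation takes place in the inner mitochondrial membrane. Complexes I and II pass electrons from NADH and succinate to ubiquinone, complex III passes them to cytochrome c, and complex IV passes them to oxygen; complexes I, III and IV pump protons, and complex V, the ATP synthase, uses the gradient to make ATP. Most subunits are encoded in the nucleus, a few in the mitochondrial genome, and complex II is wholly nuclear. Colonocytes rely on oxidation of short-chain fatty acids made by bacteria, and hexokinase 2 takes the first step of glycolysis and can bind to the outer mitochondrial membrane. Transcription of the nuclear subunit genes is commonly linked to NRF1, to GABPA (also called NRF2), to the estrogen-related receptors and to YY1.

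Promoter letters are shown first because these 4 factors are commonly linked to the members. Their part in the levels was not tested. Of the 84 distinct member symbols, 69 had a promoter in the RefSeq table (GRCm38.p6), in 75 windows, and the 250 bases before each start were searched on both strands. The NRF1 core GCATGCG was in 9 of the 75 windows (12%), beside 3.02% of all 32851 windows and 4.70% of the 15037 windows of tested genes. The ETS core CCGGAAG, which GABPA can bind, was in 12 windows (16%), beside 6.91% and 11.7%. The core AAGGTCA of the estrogen-related receptors was in 5 windows (6.67%), beside 4.08% and 3.19%, and the YY1 core ATGGCGG in 6 windows (8%), beside 2.21% and 3.31%. No motif is contained in another, and a match describes the letters only. Stretches of 70 bases are printed for 5 members, as examples of 3 of the motifs and of the differing courses described later, with the motif, or its reverse complement, in capitals; they lie outside the exons of GENCODE release M21.
Atp5e: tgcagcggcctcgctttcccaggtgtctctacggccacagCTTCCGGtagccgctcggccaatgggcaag
Uqcr11: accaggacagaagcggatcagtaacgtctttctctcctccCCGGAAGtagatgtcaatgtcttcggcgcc
Atp5l: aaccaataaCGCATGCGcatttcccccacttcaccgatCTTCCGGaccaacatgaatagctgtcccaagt
Atp5g3: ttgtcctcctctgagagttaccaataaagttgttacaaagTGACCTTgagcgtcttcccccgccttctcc
Ndufb2: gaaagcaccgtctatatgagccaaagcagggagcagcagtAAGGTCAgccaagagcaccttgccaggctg
The Atp5e stretch (chr2:174464174-174464243 on the minus strand, 142 to 73 bases before the start) and the Uqcr11 stretch (chr10:80406858-80406927 on the minus strand, 106 to 37 bases before the start) each hold the ETS core. The Atp5l stretch (chr9:44920923-44920992 on the minus strand, 250 to 181 bases before the start) holds an NRF1 core inside a longer palindrome and an ETS core. The Atp5g3 stretch (chr2:73911349-73911418 on the minus strand, 92 to 23 bases before the start) and the Ndufb2 stretch (chr6:39592344-39592413 on the plus strand, 221 to 152 bases before the start) each hold the core of the estrogen-related receptors. Atp5g3, of this pair, was higher on days 3 and 7 than on day 0 in both genotypes, whereas Ndufb2 was lower than on day 0 in KO. The Ndufb2 call of day 3 was lost without d0_KO_32 (-0.16, edgeR adjusted p = 0.149). Its calls of both days were lost with no filter and with all libraries in the fit. The part of the motifs in these courses was not tested.

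Libraries held 10.5 to 60.6 M counts, with M for mega, and levels are given as CPM, counts scaled to the library's total after TMM scaling. A count of 3, the lowest regarded as detected, was worth 0.0495 to 0.286 CPM. The 7 epithelial markers stood at 8999 to 17786 CPM in sum per library, so the labelled cell type was present, while 12 leukocyte markers summed to 14.6 to 103 CPM on days 0 and 3 and to 71.3 to 361.5 CPM on day 7. On day 7 neutrophil markers summed to 96.5 to 1191 CPM in WT and to 65.1 to 1588 CPM in KO. Their highest sum on days 0 and 3 was 85.3 CPM, in d3_KO_345. Hk2 itself had a mean of 347 CPM (SD 90.6) in the 4 WT libraries of day 0 and of 76.5 CPM (SD 31.8) in the 5 KO libraries, without overlap. On day 3 these means were 173 (SD 47.1) and 144 CPM (SD 119), and on day 7 they were 332 (SD 127) and 140 CPM (SD 71.5), with overlap on both days. The library labelled d3_KO_345 had 435 CPM of Hk2, above every WT library of that day, so a KO and WT difference on day 3 compares the labels. Day 0 libraries belong to another library series by the prefix in their file names, with histone genes at 0.266 to 0.413% of counts against 0.0120 to 0.0541% later, and the day and the series cannot be told apart. In such bulk samples fewer cells of a type and less RNA per cell cannot be told apart either.

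Of the 85 members, 78 had more than 3 counts in every library and were tested in every comparison, which are 36 of complex I, all 4 of complex II, 8 of complex III, 13 of complex IV and 17 of complex V. Since none of the 78 passed the filter on low values through a single group, the counts below cover all members detected in every library. The other 7 were at or near the limit of detection. They are tissue-restricted or hypoxia-linked partners of detected genes (Cox4i2, Cox6a2, Cox7b2, Cox8b, Cox8c and Ndufa4l2, with at most 27 counts in a library, reached by Cox4i2) and a second Uqcrc1 row on a patch scaffold with 0 counts. Cox4i2, the hypoxia-linked form of subunit 4, made up 0.125% of the Cox4i1 and Cox4i2 counts per exon length in WT on day 0 and 0.0068% on day 7, on so few counts that no change is read from it. The epithelium thus carried the widely expressed forms Cox4i1, Cox6a1, Cox6b1, Cox7b and Cox8a nearly alone, with one exception among the muscle-type forms, Cox7a1.

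Per kilobase of exon, levels in WT on day 0 spanned from 669 CPM per kb for Cox8a, a small complex IV subunit, to 1.10 CPM per kb for Cox6b2, the testis form of subunit 6b. Cox6b1 (574 CPM per kb) and Atp5a1 (446 CPM per kb), the alpha subunit of the ATP synthase, followed Cox8a. Atp5b, the beta subunit that carries the catalytic sites, had 354 CPM per kb. Next above Cox6b2 stood Atp5s (4.64 CPM per kb) and Ndufb2 (7.02 CPM per kb), an accessory subunit of complex I whose annotated exons span 5628 bases. The complex I core subunits Ndufv1, which binds NADH, and Ndufs1 were lower per length than those of the ATP synthase, with 68.8 and 19.8 CPM per kb. Sdha, the flavoprotein of complex II, had 96.8 CPM per kb and its iron-sulfur partner Sdhb 74.8. Ndufa4 had 172 CPM per kb. Uqcrfs1, the Rieske protein of complex III, had 154 CPM per kb and the core protein Uqcrc1 73.1. Exon lengths are those of the files and sum all annotated isoforms, which lowers the value of genes with a long rare isoform. Counting ignored strand although the kit keeps it, so reads of an antisense neighbour are included. In all, 31 members overlap another gene and 24 of them one on the opposite strand, such as Ndufs1 with Eef1b2, Atp5j with Gabpa and Cox4i1 with Emc8. Rows for processed copies such as Atp5k-ps2 and Atp5l-ps1 exist, and reads could be split or lost between these copies and their parents.

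**Figure D1:**
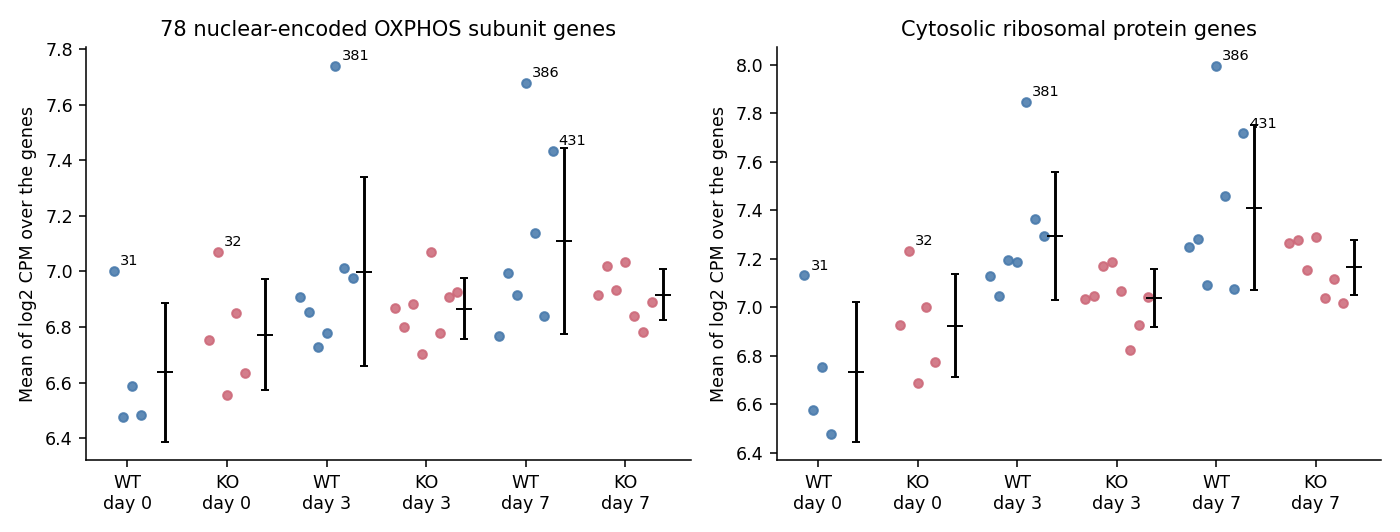
Mean log2 CPM over the 78 tested members (left) and over cytosolic ribosomal protein genes (right) in each of the 38 libraries by group, with the group mean and SD in black and 5 animals numbered. Libraries d3_WT_381 (7.74), d7_WT_386 (7.68) and d7_WT_431 (7.43) stand above all KO libraries, which lie between 6.56 and 7.07.

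Most variation of the members between libraries was shared by nearly all of them. In WT on day 3, d3_WT_381 had 76 of the 78 members above the group's median, by a median of 0.87 on the log2 scale, and its mean over the members was 7.74 log2 CPM against 6.73 to 7.01 in the other 6 libraries. In WT on day 7, d7_WT_386 had 75 members above the group's median (median deviation 0.73) and d7_WT_431 had 77 (0.44). On day 0, 76 members were high in d0_WT_31 (0.47) and all 78 in d0_KO_32 (0.31). Libraries d3_WT_381, d7_WT_386, d0_WT_31 and d0_KO_32 had the fewest detected genes of their groups (19084, 19831, 21511 and 20100) and the highest share of mitochondrial ribosomal RNA (3.95, 1.96, 13.8 and 45.6% of counts). The part of these measures in the members' levels was not tested. Cytosolic ribosomal protein genes were high in d3_WT_381, d7_WT_386, d0_WT_31 and d0_KO_32 too (means of 7.85, 7.99, 7.13 and 7.23 log2 CPM, each the highest of its group).

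The shared shift was uneven between members in a way that repeated between animals of different days. In d3_WT_381 the largest deviations were 1.6 for Atp5e, the epsilon subunit of the ATP synthase, 1.46 for Ndufb4, a complex I membrane-arm subunit, and 1.34 for both Uqcrq and Uqcr11, small subunits of complex III. In d7_WT_386 the same 4 genes deviated by 1.46, 1.24, 1.02 and 1.00. Atp5sl was the lowest in both (-0.12 and -0.26). Core subunits fell at different places: Atp5a1 deviated by 0.26 and 0.056, Atp5b by 0.23 and 0.091, Ndufs1 by 0.14 and 0.048, and Sdha by 0 and -0.21, but Uqcrfs1 by 0.64 and 0.54. Among those chosen after their values were seen, the complex I core subunits Ndufv2 and Ndufs8 deviated by 0.90 and 0.82 in d3_WT_381 and by 0.99 and 0.71 in d7_WT_386. Across the 78 members the deviations of d3_WT_381 and d7_WT_386 correlated with Pearson r 0.87 (Spearman 0.85), and those of d3_WT_381 and d7_WT_431 with r 0.73. Over 13130 genes the same pairs gave 0.41 and 0.43. Genes are not replicates and the deviations share the libraries' depth and length profile, so these values are a description. In d3_WT_381 the 25 members with exons under 1000 bases deviated by a median of 0.94 and all 725 genes of that length by 0.58. The 8 members of 4000 bases and over deviated by a median of 0.73, from 0.14 (Ndufs1) to 1.32 (Ndufb2). All 6110 genes of that length stood at -0.20. Exon length sums all annotated isoforms, and its part in the shift was not tested.

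**Figure D2:**
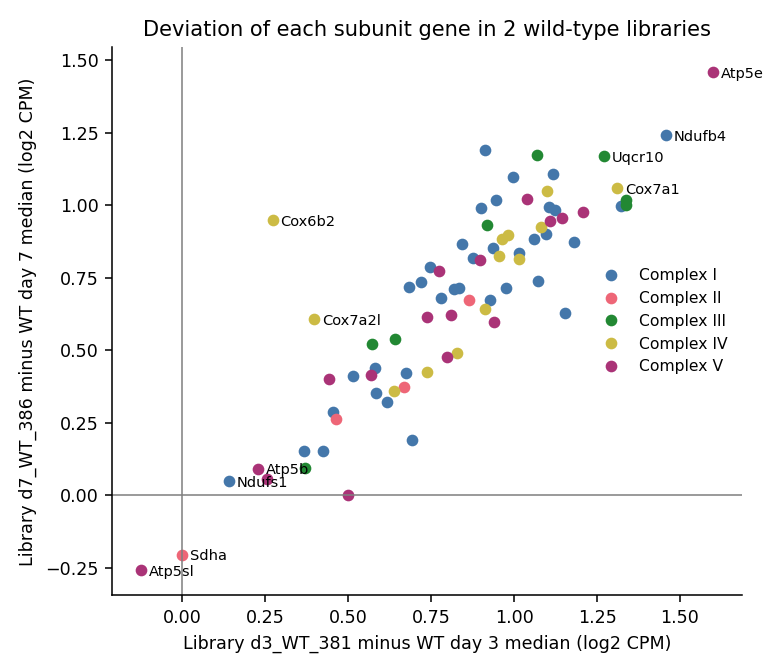
Deviation of each of the 78 members from its group median (log2 CPM) in d3_WT_381 (x axis) and in d7_WT_386 (y axis), coloured by complex. Small subunits such as Atp5e (1.6 and 1.46) and Ndufb4 (1.46 and 1.24) lie at the upper right, and Sdha (0 and -0.21) lies near the origin.

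After DSS the spread of the members in WT rested on a single library on day 3, and only in part on d7_WT_386 on day 7. The median SD over the members was 0.36 in WT on both days and 0.14 and 0.12 in KO on days 3 and 7, whereas over all genes it was 0.31 and 0.34 in WT and 0.27 and 0.31 in KO. Without d3_WT_381 the median SD of WT day 3 was 0.13, close to that of KO. That of WT day 7 was 0.26 without d7_WT_386, above the 0.12 of KO, and 0.35 without d7_WT_431. The difference in spread was not tested.

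The first question was whether the members differed between genotypes before colitis. No member passed the test on day 0: the edgeR quasi-likelihood test called 0 of 78, where it called 0.0335% of all 14944 genes, 1 member had an unadjusted p under 0.05 (background 10.5%), and the DESeq2 Wald test also called 0 (background 1.34%). Fitted log2 differences, KO over WT, were above 0 in 72 members and below 0 in 6, with a median of 0.11 beside -0.0030 over all genes, where 49.4% were above 0. By complex the medians were 0.12 (I), 0.071 (II), 0.12 (III), 0.082 (IV) and 0.12 (V). The size of this common shift rested on single animals, with 0.039 without d0_KO_32 and 0.26 without d0_WT_31. Small intestinal enterocyte markers were also higher in KO on day 0 (median log2 difference of 1.41 over the 6 tested, 0 called), and with their score as a covariate the members' median was 0.25. The part of gut region in the difference was not tested further.

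The 5 members with the smallest p on day 0 were Cox6b2, Ndufv3, Uqcrq, Atp5g1 and Ndufv1. Cox6b2 was at 1.09, 1.27, 1.01 and 1.5 CPM in the WT libraries and at 2.10, 2.46, 2.12, 2.02 and 1.98 CPM in the KO libraries. All KO libraries were above all WT libraries, which held for this member alone of 78 (1.28%), where groups did not overlap for 3.39% of all genes. Its log2 difference was 0.76 (SE 0.22, edgeR adjusted p = 0.304). Atp5g1, 1 of 3 genes for the c subunit of the ATP synthase ring, was at 133.8, 97.1, 110.3 and 99.9 CPM in WT and 121.6, 186.1, 111.5, 138.5 and 117.8 CPM in KO. These ranges overlapped, and the log2 difference was 0.28 (SE 0.16, edgeR adjusted p = 0.551). The other 3 differed by 0.25 (Ndufv3, a small complex I subunit), 0.22 (Uqcrq) and 0.18 (Ndufv1), with overlap.

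On day 3 of DSS the sign was the other way, and again no member was called. The edgeR test called 0 of 78 (0.00647% of 15461 genes), 5 members had an unadjusted p under 0.05 (background 7.88%), and DESeq2 called 0 (background 0.0129%). In 74 of 78 members KO was lower (51.1% of all genes), with a median log2 difference of -0.16 beside -0.0045 over all genes. This came with 1 library: without d3_WT_381 the median was 0.0080, and over the fits that left out another animal it stayed at -0.22 to -0.14. With all libraries of day 3, genes with exons under 1000 bases had medians of -0.20 (25 members) and -0.11 (all 1260 genes). Those of 4000 bases and over had -0.080 (8 members) and 0.043 (all 6672 genes). Cox7a2l, a factor that joins complexes III and IV, had the smallest p. It stood at 128 to 189 CPM in WT (median 143) and 98.3 to 151 CPM in KO (median 121), with overlap (log2 difference -0.29, SE 0.11, edgeR adjusted p = 0.623). Atp5e stood at 113 to 413.5 CPM in WT (median 136) and 109 to 141 CPM in KO (median 120), where the highest WT value was d3_WT_381. Ndufa1, Ndufb11 and Atp5g2 differed by -0.28, -0.21 and -0.20. Sdha and Ndufs1 differed by 0.050 and 0.064, the other way, and were among the 4 members above 0.

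On day 7 the members were again lower in KO without a call. The edgeR test called 0 of 78 (0.00642% of 15584 genes), 9 had an unadjusted p under 0.05 (background 12.9%), and DESeq2 called 0 (background 0.533%). The median log2 difference was -0.25 beside -0.0048 over all genes, with 76 of 78 members below 0 (50.9% of all genes). By complex it was -0.25 (I), -0.11 (II), -0.25 (III), -0.27 (IV) and -0.22 (V). Without d7_WT_386 it was -0.12, and without the library with the fewest genes in each group, an alternative added after seeing the data, it was -0.11 with all 78 members below 0. That alternative gave 0.18 on day 0 and 0.027 on day 3. The all-gene median also differed by exon length. With all libraries of day 7, genes under 1000 bases had medians of -0.27 (25 members) and -0.18 (all 1271 genes). Those of 4000 bases and over had -0.16 (8 members) and 0.065 (all 6672 genes). The part of exon length in the members' genotype difference was not tested on either day of DSS. Atp5g2, the second c-subunit gene, had the smallest p, at 23.3 to 40.8 CPM in WT (median 30.6) and 23.4 to 28.2 CPM in KO (median 24.3). The groups overlapped, and the log2 difference was -0.32 (SE 0.12, edgeR adjusted p = 0.327). Ndufb4 stood at 5.85 to 19 CPM in WT (median 8.00) and 6.18 to 7.00 CPM in KO (median 6.74). Its median differed less than its mean, as the top WT value was d7_WT_386 (log2 difference -0.52, SE 0.23, edgeR adjusted p = 0.371). Uqcr10, Ndufc2 and Atp5s differed by -0.44, -0.32 and -0.31. Nearest to 0 were Sdha (0.0032), Atp5sl (0.014), Atp5b (-0.038) and Ndufs1 (-0.044), and Atp5a1 differed by -0.089.

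**Figure D3:**
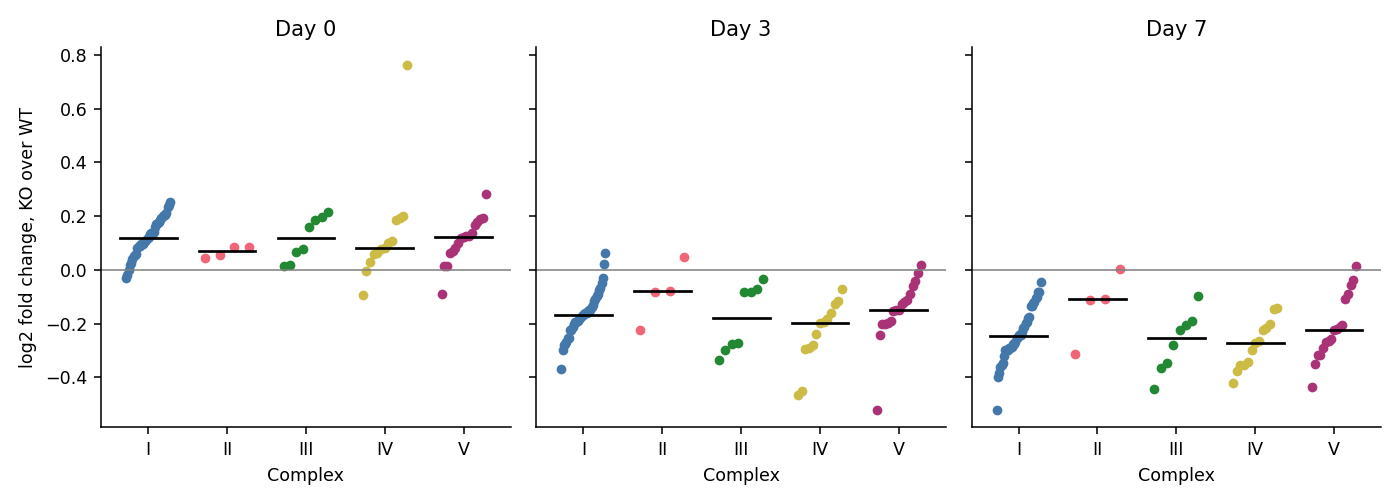
Log2 difference, KO over WT, of each tested member by complex on days 0, 3 and 7 (one point per gene, bar for the median). Medians over the 78 members are 0.11, -0.16 and -0.25, and no point passed the edgeR test.

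The next question was what changed between days 3 and 7 of DSS, within one library series. In WT no member was called (0 of 78, beside 19.3% of 15541 genes), 2 had an unadjusted p under 0.05 (background 32.2%), and DESeq2 called 2 (background 24.5%), Ndufa10 higher and Cox7a1 lower. The median log2 change was 0.11 beside 0.013 over all genes. It was 0.27 without d3_WT_381 and -0.028 without d7_WT_386. Without d3_WT_381, 6 members were called (Atp5g3, Cox5a, Ndufa10, Ndufs3, Ndufs4 and Sdhb). The share over all genes in that fit is not given here, so no rise of the members is read from this count. Ndufa10, an accessory subunit in the membrane arm of complex I, stood at 132.5 to 185 CPM on day 3 (median 143) and at 164 to 213 CPM on day 7 (median 171). The ranges overlapped, and the change was 0.26 (SE 0.09, edgeR adjusted p = 0.0544).

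In KO, 2 of 78 members fell between days 3 and 7 and none rose, beside 19.3% of 15568 genes called and 8.83% called lower. DESeq2 called the same 2 (background 22.6%), and 6 members had an unadjusted p under 0.05 in edgeR (background 30.6%). Cox7a1 (chr7:30184171-30186028, plus strand, GRCm38), the form of complex IV subunit 7a known from heart and skeletal muscle, stood at 19.2 to 31.9 CPM on day 3 (median 25.9) and at 12.9 to 16.9 CPM on day 7 (median 14.6). Every day 7 library was below every day 3 library, and Cox7a1 fell by 0.85 on the log2 scale (SE 0.11, edgeR adjusted p = 6.24e-05). The call was kept in each fit that left out 1 animal, and was lost with the leukocyte score as covariate (-0.28, edgeR adjusted p = 1.00), where 0 genes were called at all. In WT it stood at 22.3 to 74.4 CPM on day 3 (median 30.0) and at 6.83 to 38.1 CPM on day 7 (median 18.3), with overlap through d7_WT_386 and d7_WT_431 (log2 change -0.87, SE 0.35, edgeR adjusted p = 0.0953). Ndufa1, an X-linked accessory subunit of complex I, fell by 0.18 in KO (SE 0.06, edgeR adjusted p = 0.0426), from 74.2 to 87.4 CPM (median 75.9) to 65.7 to 86.2 CPM (median 69.2). The ranges overlapped, and this call was lost in 11 of the 15 fits that left out 1 animal and under 5 other alternatives. The remaining 76 members moved little, with a median of 0.025 over all 78. Leukocyte markers rose over the same days, 9 of 12 tested in WT (median log2 change 2.18) and 12 of 12 in KO (2.01), as did all 7 neutrophil markers in both.

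Shares within a library compare related members without the shift common to all of them. The share of Cox7a1 in the counts per exon length of Cox7a1 and Cox7a2, the widely expressed form, was 25.1 to 27.2% in WT on day 0 (26.3 ± 1.04%, SD, n = 4). It was 21.8 to 26.9% on day 3 (23.5 ± 1.77%, n = 7) and 6.41 to 16.2% on day 7 (12.5 ± 3.53%, n = 7). The days 3 and 7 did not overlap, with d3_WT_381 and d7_WT_386 inside the range of their groups or at its top, and the difference was -11.0 percentage points (two-sided exact permutation p = 0.000583, adjusted p = 0.00874 over 45 such tests). In KO the share was 22.7 to 27.9% on day 0 (24.2 ± 2.12%, n = 5), 15.5 to 22.8% on day 3 (20.9 ± 2.69%, n = 8) and 11.2 to 15% on day 7 (12.5 ± 1.44%, n = 7). Here too every day 7 library was below every day 3 library, by -8.37 points in the mean (exact permutation p = 0.000311, adjusted p = 0.00874). Both differences had a p under 0.05 in each fit that left out 1 animal (-11.6 to -9.99 points in WT and -9.14 to -8.10 points in KO). Cox7a2 itself did not pass the test between these days, with a log2 change of 0.20 in WT (SE 0.22, edgeR adjusted p = 0.584) and 0.044 in KO (SE 0.08, edgeR adjusted p = 0.757).

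Markers of other cells mostly rose from day 3 to day 7 while the Cox7a1 share fell, but libraries within groups went both ways. The sum of the 12 leukocyte markers was 14.6 to 70.5 CPM in WT on day 3 and 71.3 to 361.5 CPM on day 7, and 45.3 to 103 CPM and 118 to 339 CPM in KO. The lowest share of KO day 3 (15.5%) was in d3_KO_345, which had the highest leukocyte sum of that group (103 CPM) and 85.3 CPM of neutrophil markers against 2.80 to 8.93 CPM in the other 7. The lowest of WT day 7 (6.41%) was in d7_WT_356, with a leukocyte sum of 317 CPM, but d7_WT_419, with the highest sum (361.5 CPM), had 12.3%. Low shares also came with low sums, 9.46% with 84.6 CPM in d7_WT_361 and 17.9% with 49.6 CPM in d3_KO_387. The highest shares of these groups, 16.2% in d7_WT_370 and 22.8% in d3_KO_350, came with 176 and 62.5 CPM. Stromal markers summed to 8.28 to 107 CPM on day 3 and 22.7 to 293 CPM on day 7. Of 8 tested, 6 in WT and 7 in KO were higher on day 7 than on day 3. Their median log2 changes were 0.81 and 0.94. Whether the share fell within epithelial cells was not tested. The share was 2.57 points lower in KO than in WT on day 3 (exact permutation p = 0.0261, adjusted p = 0.0452), and this did not pass on lane 1 alone (p = 0.0662) or without the fewest-gene libraries (p = 0.0979), nor without d3_WT_346, d3_WT_348, d3_WT_381 or d3_WT_486 (p of 0.0553, 0.0546, 0.0559 and 0.0526). On day 7 the genotypes differed by 0.064 points (exact permutation p = 0.967).

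**Figure D4:**
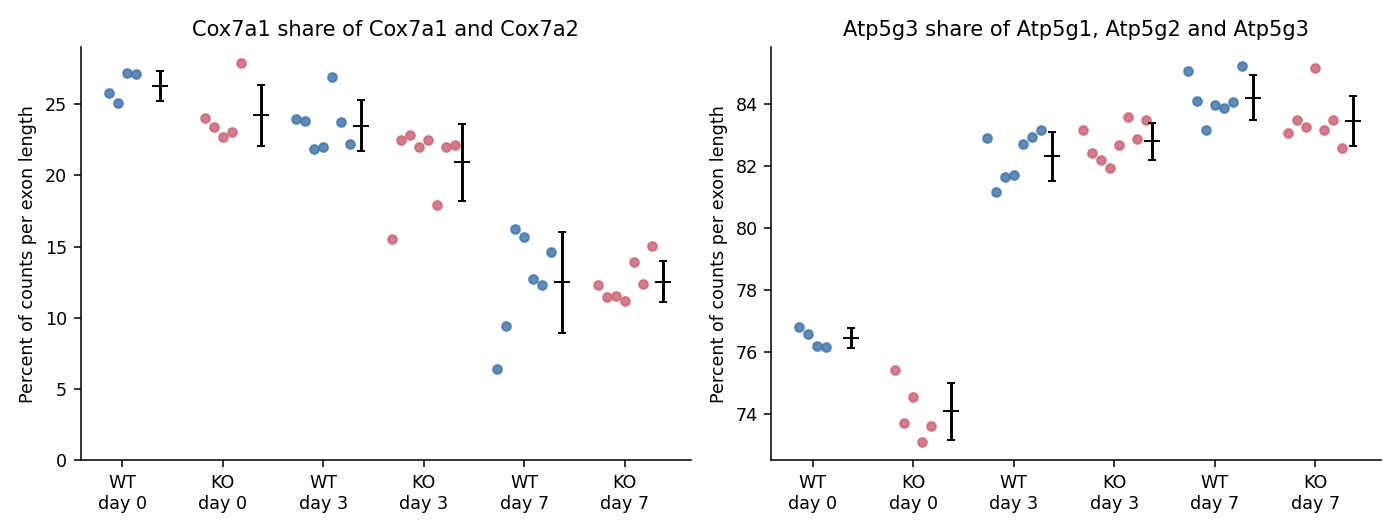
Share of Cox7a1 in Cox7a1 and Cox7a2 (left, axis from 0) and of Atp5g3 in the Atp5g family (right, axis not from 0), in percent of counts per exon length in each library, with the group mean and SD in black. The Cox7a1 share of day 7 (6.41 to 16.2%) lies apart from day 3 within each genotype, and the Atp5g3 share of KO day 0 (73.1 to 75.4%) lies below WT day 0 (76.2 to 76.8%).

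The 3 Atp5g genes encode the same mature c subunit of the ATP synthase with different targeting sequences. Atp5g3 (chr2:73908447-73911326, minus strand) held most of the family's counts per exon length, at 76.8, 76.6, 76.2 and 76.2% in the WT libraries of day 0 and 75.4, 73.7, 74.6, 73.1 and 73.6% in those of KO. The groups did not overlap, the KO mean was 2.36 points lower, and the exact permutation p of 0.0159 is the smallest that 4 against 5 libraries allow (adjusted p = 0.0298). Atp5g1 held more of the family in KO, with 16.4 ± 0.27% in WT and 18.4 ± 0.73% in KO (1.99 points, exact permutation p = 0.0159, adjusted p = 0.0298, n = 4 and 5). Without the fewest-gene library of each group the differences were -2.15 points for Atp5g3 and 1.75 points for Atp5g1. Both had an exact permutation p of 0.0571, the smallest that 3 against 4 allow. The shares of the 3 Atp5g genes add up to the whole family, so these differences are not independent. On day 3 the Atp5g3 share was 82.3 ± 0.79% in WT and 82.8 ± 0.59% in KO, and on day 7 it was 84.2 ± 0.71% and 83.5 ± 0.81%. From day 3 to day 7 it was 1.89 points higher in WT (exact permutation p = 0.000583, adjusted p = 0.00874, no overlap) and 0.66 points higher in KO (exact permutation p = 0.0892, adjusted p = 0.134). Whether these 2 changes differ was not tested. The Atp5g1 share was 0.20 points higher in KO on day 3 (exact permutation p = 0.577). On day 7 it was 1.01 points higher in KO (exact permutation p = 0.0297, adjusted p = 0.0495). The day 7 difference did not pass without the fewest-gene libraries (exact permutation p = 0.0541). The share of Cox6b2 in the Cox6b pair on day 0 was 0.198 ± 0.057% in WT and 0.319 ± 0.044% in KO (exact permutation p = 0.0159, adjusted p = 0.0298, n = 4 and 5). Without the fewest-gene libraries this share was 0.103 points higher in KO (exact permutation p = 0.0571).

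Against day 0, which differs in library series as well, the members' calls were mostly higher. In WT 23 members rose and 1 fell by day 3 (beside 46% of genes called, 20.4% higher and 25.6% lower), and 39 rose and 1 fell by day 7 (beside 56.9%, 27.8% and 29.2%). In KO 19 rose and 5 fell by day 3 (beside 46.3%, 22.6% and 23.7%), and 25 rose and 8 fell by day 7 (beside 54.6%, 27.3% and 27.3%). The called share of the members was 30.8% and 51.3% in WT and 30.8% and 42.3% in KO on days 3 and 7, below that of all genes. It was not below without d0_WT_31 (51.3% beside 51.0% on day 3 and 74.4% beside 58.3% on day 7), nor on day 7 without d0_KO_32 (61.5% beside 56.6%), so no order is read from the shares. Median log2 changes were 0.36 and 0.48 in WT and 0.080 and 0.16 in KO on days 3 and 7, while those over all genes were between 0.0060 and 0.025. The rise was not particular to the members. Mitochondrial ribosomal protein genes had medians of 0.40 and 0.50 in WT and 0.16 and 0.20 in KO. Cytosolic ribosomal protein genes had 0.62 and 0.76 in WT and 0.13 and 0.28 in KO. Genes of the tricarboxylic acid cycle had 0.43 and 0.41 in WT and 0.29 and 0.26 in KO. The members' KO median of day 3 was 0.022 without d0_KO_53 and 0.21 without d0_KO_32. The 4 comparisons share their day 0 libraries within a genotype. Groups without overlap were common: in WT 11 and 15 of 78 members lay higher, beside 2209 of 17152 and 3216 of 17428 genes. In KO 5 and 10 members lay higher, beside 1780 of 16010 and 2937 of 16367 genes. Lower without overlap were 0 and 0 members in WT (3136 and 3598 genes) and 3 and 4 in KO (2046 and 2679 genes). The WT count of 24 on day 3 was 14 without d0_WT_41, 13 without d0_WT_43, 10 without d0_WT_46 and 40 without d0_WT_31. That of 40 on day 7 was 25 without d0_WT_41 or d0_WT_46, and that of KO on day 3 was 38 without d0_KO_32 in place of 24. With the leukocyte score as covariate KO had 7 calls on day 3 and 0 on day 7. In KO that score, a mean log2 CPM, was 0.14 to 1.08 on day 0 and 2.57 to 3.66 on day 7, without overlap. Score and day are thus hard to separate in that fit. The shares over all genes in these fits are not given here, so nothing is read from the counts.

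Complex II had the largest part of its members called: 3 of 4 (Sdha, Sdhc and Sdhd) on day 3 and 4 of 4 on day 7 in each genotype, all higher. Sdha stood at 437.4, 353.5, 356.2 and 357.1 CPM in WT on day 0, at 456 to 495 CPM on day 3 (median 476) and at 445 to 569.5 CPM on day 7 (median 513). Neither later group overlapped day 0, and Sdha rose by 0.32 with SE 0.10 and by 0.41 with SE 0.11 (edgeR adjusted p of 0.0174 and 0.00648). The day 3 call was lost without d0_WT_43 or d0_WT_46 (edgeR adjusted p of 0.0566 and 0.0621). In KO it rose by 0.33 and 0.36 with adjusted p of 0.0017 and 0.00104 (edgeR), again without overlap, on days 3 and 7. Sdhc and Sdhd, the membrane anchors, rose too. Sdhd rose by 0.62 and 0.89 in WT and by 0.32 and 0.50 in KO, where the WT call of day 3 was lost without d0_WT_46 (0.55, edgeR adjusted p = 0.0681) and the KO call of day 3 with all libraries in the fit (edgeR adjusted p = 0.0794). Sdhc lost its day 3 call in 7 of 11 fits that left out 1 animal in WT and in 9 of 13 in KO. Sdhb lost its day 7 call in 4 of 11 such fits in WT and in 6 of 12 in KO.

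In complexes III, IV and V single members stood out above the rest. Uqcrq (chr11:53427922-53430831, minus strand) was at 72.5, 52.6, 62.9 and 56.1 CPM in WT on day 0, and at 107 to 337 CPM (median 133) and 130.3 to 306 CPM (median 151) later. All later libraries were above all day 0 libraries, and the log2 changes were 1.36 and 1.51 in WT and 0.87 and 0.93 in KO (edgeR adjusted p of 0.00179, 0.000115, 6.11e-06 and 2.56e-06). Uqcrc2, a core protein of the same complex, rose by 0.48 and 0.69 in WT and by 0.40 and 0.48 in KO, with the WT call of day 3 lost without d0_WT_41, d0_WT_43 or d0_WT_46 (edgeR adjusted p of 0.0526, 0.0679 and 0.0801). Atp5j, coupling factor 6 of the ATP synthase stalk, rose by 1.20 and 1.29 in WT and 1.04 and 1.05 in KO. Its gene overlaps Gabpa on the opposite strand, and the counts do not separate them. Atp5g3 rose by 0.97 and 1.26 in WT and 0.86 and 0.93 in KO, from 201 to 282 CPM in WT on day 0 to 351.5 to 733 CPM on day 3. Cox5a, a matrix-side subunit of complex IV, rose by 0.83 and 1.08 in WT and 0.68 and 0.79 in KO. Cox7c, another small subunit of complex IV, rose by 0.68 in WT by day 7, a call lost without d0_WT_41 or d0_WT_46 (edgeR adjusted p of 0.0582 and 0.0620). Cox4i1, Cox6a1, Cox6b1, Cox7b and Cox8a had log2 changes of 0.00095 to 0.53 in WT by day 3, none of which passed.

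In complex I, Ndufa8, Ndufs6 and Ndufb10 were among the members that rose, and Ndufb4 had the lowest change in all 4 comparisons. Ndufa8, an intermembrane-space subunit, rose by 0.78 and 0.91 in WT and by 0.49 and 0.55 in KO. Ndufs6, an accessory subunit of the matrix arm, rose by 0.80 and 0.91 in WT and by 0.35 and 0.40 in KO. Its WT call of day 3 was lost without d0_WT_41, d0_WT_43 or d0_WT_46 (edgeR adjusted p of 0.0598, 0.0569 and 0.0746). Ndufb10, of the membrane arm, rose by 0.50 and 0.55 in KO. Ndufb4 (chr16:37647170-37654453, minus strand) fell in all 4 comparisons: from 22.6, 15.3, 18.6 and 16.7 CPM in WT on day 0 to 6.45 to 22.4 CPM on day 3 (median 8.13) and 5.85 to 19 CPM on day 7 (median 8.00). The overlap with day 0 in WT came from d3_WT_381 and d7_WT_386, and the log2 changes were -0.92 with SE 0.30 and -0.97 with SE 0.29 (edgeR adjusted p of 0.0207 and 0.0109). Without d0_WT_31 the day 3 change missed the threshold (-0.79, edgeR adjusted p = 0.0623). In KO, Ndufb4 went from 20.1, 23.3, 14.7, 19.998 and 19.5 CPM to 6.27 to 9.01 CPM on day 3 and 6.18 to 7.00 CPM on day 7, with no overlap. It fell by 1.36 with SE 0.12 and by 1.56 with SE 0.11 (edgeR adjusted p of 1.73e-07 and 7.32e-08). The other members that fell in KO by day 3 were Uqcr11 (-0.44), Ndufa13 (-0.34), Ndufb2 (-0.33) and Cox8a (-0.26). Without d0_KO_32 Ndufb2 was at -0.16 and Cox8a at -0.18 (edgeR adjusted p of 0.149 and 0.0686), and Ndufb2 also missed the threshold without d0_KO_54 (edgeR adjusted p = 0.0528). Both calls were lost with no filter, with all libraries in the fit and without the fewest-gene libraries, and that of Uqcr11 with all libraries. By day 7 these were joined by Ndufa7 (-0.33), Cox6b2 (-1.09) and Cox7a1 (-1.10). Ndufa7, Ndufa13, Ndufb2 and Cox8a lost their day 7 calls with no filter, with all libraries and without the fewest-gene libraries, where Ndufa7 was at -0.19 and Ndufb2 at -0.19. Cox8a also lost it without d0_KO_54 (edgeR adjusted p = 0.0529), and Uqcr11 with all libraries.

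**Figure D5:**
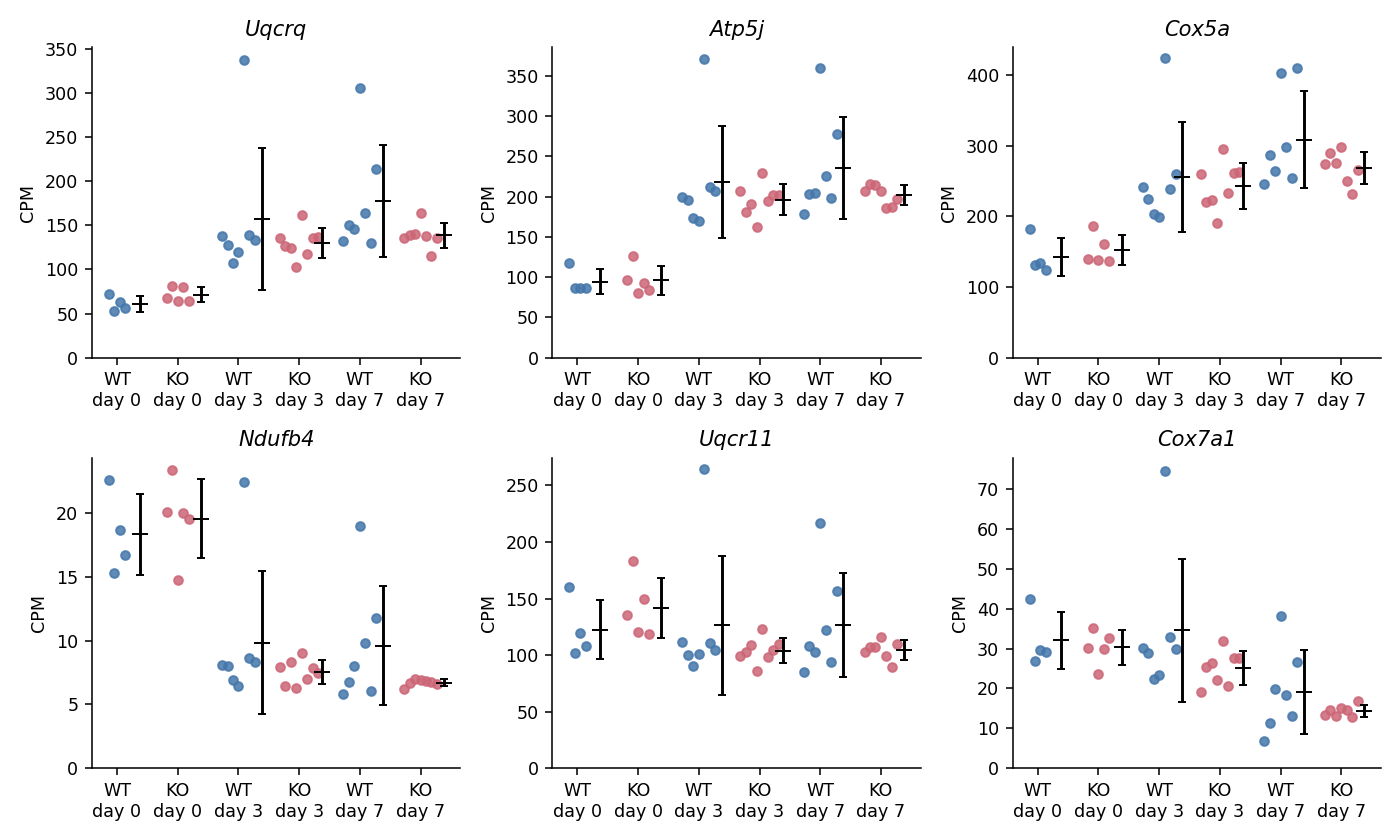
CPM of 6 members in each library of the 6 groups (linear axes from 0), with group means and SD in black. Uqcrq, Atp5j and Cox5a lie higher on days 3 and 7 than on day 0, Ndufb4 lies lower except in d3_WT_381 (22.4 CPM) and d7_WT_386 (19 CPM), and Cox7a1 has its lowest value in WT on day 7 (6.83 CPM).

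Whether the change over days differed between genotypes was tested as an interaction. From day 3 to day 7 edgeR called 0 of 78 members, with 0 at an unadjusted p under 0.05 (beside 0.0% of 16371 genes called and 2.69% under 0.05 unadjusted), and DESeq2 called 0 (background 0.0%). The median was -0.067, with -0.25 without d3_WT_381 and 0.032 without d7_WT_386. From day 0 to day 7 edgeR again called 0 of 78 (beside 0.00531% of 18830 genes), with 6 under an unadjusted p of 0.05 (background 13.5%), and DESeq2 called 0 (background 1.34%). The median was -0.32, KO change minus WT change, and 77 of 78 members were below 0 (47.0% of all genes). The smallest p were those of Atp5g2 (-0.47), Cox6b2 (-1.04), Ndufv3 (-0.42), Uqcrq (-0.55) and Ndufb11 (-0.41), with edgeR adjusted p of 0.305 to 0.364. Without d7_WT_386 that median was -0.18, and without d0_WT_31 it was -0.46.

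Other genes of the pathway were grouped by their known function. Of 43 tested assembly factors, which build the complexes without staying in them, 0 were called between genotypes on any day by edgeR. On days 0, 3 and 7, 1, 4 and 3 had an unadjusted p under 0.05 (background 10.5%, 7.88% and 12.9%). Their medians were 0.045, -0.071 and -0.11. Between days 3 and 7, Ttc19 rose in WT and Ndufaf7 fell in KO. The 13 genes of the tricarboxylic acid cycle had medians of 0.033, -0.0083 and -0.037 between genotypes, and Idh3a alone was called from day 3 to day 7 (lower in KO). Of the subunits encoded in the mitochondrial genome, 8 were tested on day 0 and 11 later: the medians were 1.47, -0.11 and -0.30 with 0 called, and 3 of 11 (mt-Atp6, mt-Co3 and mt-Nd3) fell in KO from day 3 to day 7 (median -0.39), where 8.83% of all genes were called lower. Their summed level was 26056 to 331547 CPM over the 5 KO libraries of day 0, with the highest in d0_KO_32. The 10 regulators, among them Nrf1, Gabpa, Esrra and Ppargc1a, had medians of -0.043, -0.039 and -0.0033 and no call between genotypes. From day 3 to day 7, 2 of the 10 fell in each genotype, Esrrg and Ppargc1a, where 8.7% of all genes in WT and 8.83% in KO were called lower. Esrrg fell by 2.31 in WT and 2.89 in KO, and Ppargc1a, a coactivator of mitochondrial genes, by 0.81 and 0.84 (edgeR adjusted p of 0.000247, 4.77e-06, 0.0411 and 0.0114). Cytosolic ribosomal proteins had the same signs as the members between genotypes, with medians of 0.18, -0.29 and -0.31 and 0 of 93 called on days 3 and 7, where 68 and 38 had an unadjusted p under 0.05 (background 7.88% and 12.9%).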

How the data were processed

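RNA of 38 mice in 6 groups was sequenced after a stranded mRNA kit, with 2 lanes per library. Per the submitters' processing notes the authors used Trim Galore, STAR and the GRCm38 genome. The deposited values are raw read counts per gene from featureCounts, version 1.6.2 per the file headers and 1.5.2 per the submitters' processing notes, without strand. The annotation release is not given in the sources used here. Lanes were summed. edgeR 4.0.16 in R 4.3.3 was run on these counts (TMM scaling, filterByExpr, quasi-likelihood test, Benjamini-Hochberg adjustment over all genes, threshold 0.05), on the groups of each of 11 comparisons. DESeq2 1.42.0 was an alternative. Scores used log2 CPM with a prior count of 2. The fits were tested on simulated data. Isoform shares were compared with two-sided exact permutation tests over libraries, adjusted over 45 tests. Totals were 10.5 to 60.6 M counts per library. Animals are the replicates, and p-values measure the spread between them.

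Other settings tried were DESeq2's size factors and Wald test, no filter, a stricter one (mean CPM 1 or more), the first lane by itself, all libraries in one fit, removal of mitochondrial and immunoglobulin genes, covariates for leukocyte or small intestinal markers, and each animal left out. Named members were those called (at most 8 in a direction, otherwise the 2 of largest change per complex and up to 5 of the other direction), or the 5 of smallest p where none was called, with core subunits, gene-family partners and the 3 highest and 3 lowest per length in WT on day 0. The members and lists were chosen with earlier results of these data known, and the share tests were defined with the values in view. One gene named by this rule is not reported here. No protein sequences were used here.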

Additional observations from a re-analysis of the deposited data

Results flagged for a closer look

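Single libraries stood far from the rest of their group in 39 of 168 checks of member levels, where chance flags about 1 in 20. The checks are not independent, since the members move together. All but 1 of them concern 4 libraries in which nearly all members were high.

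d3_WT_381 stood above its group in the mean over all members (7.74 log2 CPM) and in the means of complexes I (7.14), II (8.51), III (8.74), IV (8.09) and V (8.09). Among single genes it was highest, in CPM, for Ndufv1 (254), Sdhb (294), Uqcrc1 (501), Uqcrfs1 (436), Cox4i1 (1360.4), Cox5a (424), Ndufa4 (208), Cox6a1 (570.3), Cox6b1 (640.5), Cox7a1 (74.4), Cox7a2 (418), Cox7b (656), Cox8a (557), Atp5g1 (232), Atp5g2 (38.4) and Atp5g3 (733). Library d7_WT_386 stood apart for Ndufa4 (243 CPM) and Cox7b (751 CPM).

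d0_WT_31 stood apart in the means of complexes II (8.05 log2 CPM) and IV (7.33). It did so, in CPM, for Sdha (437), Sdhb (217), Uqcrc1 (366.8), Cox4i1 (677), Cox5a (182), Atp5b (1902.5), Cox6b1 (374), Cox7a2 (254), Cox7b (360.1) and Cox8a (454). d0_KO_32 stood apart for Uqcrc1 (430.6 CPM) and Cox6b2 (2.46 CPM). Library d7_KO_420 was apart for Cox4i1 alone (912 CPM).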

How the results depend on the processing

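No paired analysis was run, because the animal numbers are not shared between groups and the sample labels used here give no litter or cage. For WT between days 3 and 7, members called numbered 2 with the DESeq2 Wald test, 1 at a mean CPM of at least 1, 2 with all libraries in the fit and 5 without the fewest-gene libraries (an alternative added after seeing the data), and 0 to 6 with 1 animal left out. With the leukocyte covariate the median was 0.61, and Cox7a1 turned to 0.042. For KO they numbered 1 with DESeq2 size factors, 1 with all libraries, 0 with the leukocyte covariate and 1 without the fewest-gene libraries, and 1 to 2 with 1 animal left out. For day 3 against day 0 in WT they were 41 with no filter, 40 with all libraries, 54 without the fewest-gene libraries and 10 to 40 with 1 animal left out. In KO they were 15 with all libraries, 7 with the leukocyte covariate, 38 without the fewest-gene libraries and 18 to 38 with 1 animal left out. For day 7 against day 0 they were 25 to 58 in WT and 27 to 48 in KO with 1 animal left out, and 0 in KO with the leukocyte covariate. That covariate gave a WT median of 1.01 and turned Ndufb4 to 0.10. The causes of these changes were not tested. The counts of calls stand without the shares over all genes in the same fits, so they show only the dependence on the setting. Of the named members' values, 733 of the other alternatives kept direction and side of the threshold, 55 lost and 8 gained a call and 2 turned. With 1 animal left out, these were 1175 kept, 39 lost and 2 gained. Depth was lowest on day 0, where 3 counts are worth up to 0.286 CPM.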
